A study of Caenorhabditis elegans with 2 samples.

Results

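The 57 genes described here encode parts of the secretory pathway and the Rab GTPases of *Caenorhabditis elegans*. They are the protein-coding genes whose symbol begins with sec, rab, arf, sar, copa, copb, copd, cope, copg, copz, tram, trap or spcs and a number, with *rab-3* left out, among 19973 protein-coding genes of the WBcel235 annotation. LSY-12 belongs to the MYST histone acetyltransferases, and its binding at these genes was measured by chromatin immunoprecipitation and sequencing (ChIP-seq). The animals were of strain OP568, which carries the allele *unc-119(tm4063)* on chromosome III and the transgene wgIs568, and which makes LSY-12 with GFP and FLAG at its C terminus. Whole larvae of mixed sex at stage L3, 43 h after synchronization by starvation at L1, were precipitated with an antibody to GFP. The only group had 2 biological replicates, numbered 3 and 4 in the labels. Both replicates were of this single strain, the labels do not name the sequence that drives the transgene, and animals without the tag were not analysed here. Strong binding in a few cells and weak binding in many cannot be told apart in whole animals.

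Proteins bound for the cell surface or the outside enter the endoplasmic reticulum (ER) through the Sec61 channel, where the TRAP complex and signal peptidase act on the growing chain. COPII-coated vesicles carry cargo from the ER towards the Golgi, and COPI-coated vesicles carry proteins back. Rab GTPases mark membranes and recruit the factors that move, tether and fuse vesicles, and the exocyst tethers vesicles at the plasma membrane. By these roles the 57 genes were divided into 12 genes of the translocon and ER entry, 8 of the COPII coat, 7 of the COPI coat, 3 Arf GTPases, 6 exocyst subunits, 2 SNAREs and 19 Rab GTPases.

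The deposited lists give regions of signal, with 30000 candidate regions in the list of either replicate and as many in the list pooled from both. The list that the authors thresholded by the irreproducible discovery rate held 2095 peaks, which were the 2095 regions of highest signal in the pooled list. A gene was called bound when the summit of a thresholded peak lay no more than 500 bp from the start annotated furthest 5′. Relative signal is a region's signal divided by the median signal of all regions in the same list, so 1 is the median region. Thresholded peaks began at a pooled relative signal of 2.13. The lists hold no read counts, so the depth is unknown.

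Of the 57 genes, 14 were bound (24.6%, exact Clopper-Pearson 95% interval 14.1 to 37.8%), against 5.26% of all protein-coding genes. Genes of protein entry into the ER made up 7 of the 14. The bound genes were these translocon genes (*sec-61.A*, *sec-61.B*, *sec-61.G*, *trap-1*, *trap-2*, *trap-3* and *spcs-2*), the COPII genes *sar-1* and *sec-24.1*, the COPI gene *copz-1*, the exocyst genes *sec-3* and *sec-15*, and the Rab genes *rab-14* and *rab-18*. The strongest peaks lay at *sec-61.G* and between *sec-61.B* and *trap-3*. Because this last pair shared 1 summit, the 14 genes had 13 distinct summits.

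The DNA at the summit is shown for 5 of these 13 peaks, chosen for the highest signal in the translocon and COPII groups and for motifs held in common. Each sequence is the 201 bp centred on the summit, read 5′ to 3′ on the strand of the named gene from the RefSeq genome of WBcel235 (ce11). None of these windows overlaps an exon of a protein-coding gene. Capitals mark matches, on either strand, to TGACGTG (the core of an unfolded protein response element), CCACG (part of the ER stress element), CACGTG (an E-box), GAGAGA and CTGCGTC. GTTCGANNC, the B box of tRNA genes, was also searched, and was added after the values were seen.
*sec-61.G* (chrV:10897261-10897461, minus strand): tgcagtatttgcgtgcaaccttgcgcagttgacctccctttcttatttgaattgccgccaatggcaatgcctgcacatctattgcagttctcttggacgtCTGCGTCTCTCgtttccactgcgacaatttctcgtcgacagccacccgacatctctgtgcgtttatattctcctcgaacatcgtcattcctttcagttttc
*trap-3* and *sec-61.B* (chrIV:2389030-2389230, plus strand, that of *trap-3*): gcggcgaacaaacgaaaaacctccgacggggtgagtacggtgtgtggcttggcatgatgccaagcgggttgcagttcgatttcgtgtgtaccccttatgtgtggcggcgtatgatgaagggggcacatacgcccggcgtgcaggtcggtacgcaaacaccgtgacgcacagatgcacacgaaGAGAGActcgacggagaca
*sec-24.1* (chrIV:11566232-11566432, minus strand): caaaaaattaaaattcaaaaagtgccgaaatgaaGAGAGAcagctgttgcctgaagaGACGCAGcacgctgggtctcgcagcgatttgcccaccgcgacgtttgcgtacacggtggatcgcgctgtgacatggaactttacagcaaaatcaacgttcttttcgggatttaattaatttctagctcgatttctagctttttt
*sar-1* (chrIV:4513586-4513786, minus strand): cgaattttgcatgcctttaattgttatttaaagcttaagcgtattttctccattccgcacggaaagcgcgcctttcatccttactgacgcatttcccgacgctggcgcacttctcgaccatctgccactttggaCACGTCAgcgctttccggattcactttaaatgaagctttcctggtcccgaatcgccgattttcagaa
*sec-3* (chrX:3099905-3100105, minus strand): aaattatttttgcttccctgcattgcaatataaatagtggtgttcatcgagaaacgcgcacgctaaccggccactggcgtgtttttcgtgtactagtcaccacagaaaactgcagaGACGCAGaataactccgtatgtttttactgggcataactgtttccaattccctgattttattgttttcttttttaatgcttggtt

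CTGCGTC occurred in the windows of *sec-61.G*, *sec-24.1* and *sec-3*, which made 3 of the 13 summits (23.1%). It was held by 15.3% of the windows of all 2095 thresholded summits, and by 3.25% of 201-bp windows that end at a protein-coding start. In *sec-61.G* the centre of the match lies 3 bp from the summit and runs into a match to GAGAGA on the other strand. GAGAGA was present at 4 of the 13 summits (30.8%, against 37.3% of all thresholded summits and 16.3% of promoter windows), *sec-61.B* with *trap-3* and *sec-24.1* among them. TGACGTG was present at *sar-1* and *copz-1* (15.4%, against 3.53% and 2.03%). CCACG was present at 5 summits (38.5%, against 27.1% and 14.7%), and CACGTG at none (against 9.93% and 4.23%). The matches are descriptions of letters in these windows, and the counts of 13 are small. The median GC content was 47.3% at the members' summits, 44.3% at all thresholded summits and 32.8% in promoter windows. Exons of protein-coding genes overlap the summit windows of *sec-61.A*, *sec-15*, *rab-18* and *trap-1*. Such overlap was not counted for the other sets, so the sequence compared may differ in kind.

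**Figure D1:**
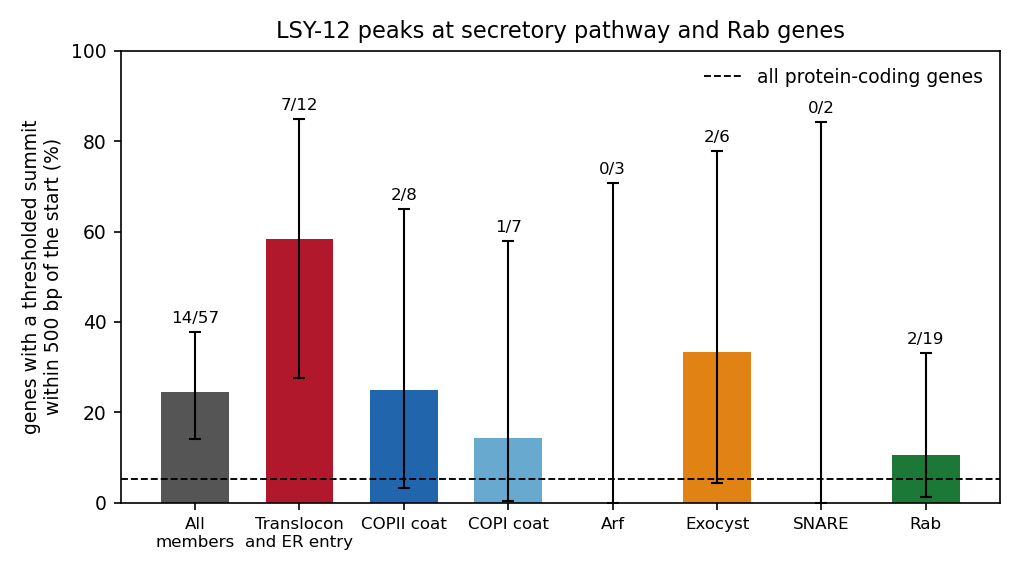
Share of genes with a thresholded LSY-12 summit within 500 bp of the start (vertical axis, percent), for all members and each functional group, with the number bound over the number of genes above each bar. Error bars are exact 95% intervals for counting error, and the dashed line is the 5.26% of all protein-coding genes. The translocon bar is the tallest (7 of 12) and the Rab bar stands at 2 of 19.

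Of the 12 translocon and ER entry genes, 7 were bound (58.3%, exact 95% interval 27.7 to 84.8%). Among these 7, *sec-61.B* and *trap-3* shared a summit, and the interval treats them as independent. Of the 15 coat genes, 3 were bound (20%, 4.33 to 48.1%), and of the 19 Rab genes 2 (10.5%, 1.30 to 33.14%). The interval of the Rab genes includes the 5.26% of all protein-coding genes, and so does that of the coat genes. The intervals of the translocon and Rab genes overlap, and the difference between the groups was not tested. Among the remaining groups, 2 of 6 exocyst genes were bound, with an exact 95% interval of 4.33 to 77.7% that also includes 5.26%. None of the 3 Arf or 2 SNARE genes was bound, which leaves shares of up to 70.8% and 84.2% within the exact intervals.

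All 3 genes of the Sec61 channel were bound. *sec-61.G* encodes the gamma subunit. Its peak (chrV:10897241-10897492, summit 218 bp upstream of the start) had a relative signal of 11.6 in replicate 3 and 13.4 in replicate 4 (mean 12.5 ± 1.31, SD, n = 2). It ranked 29 among the 2095 thresholded peaks, and no other protein-coding gene had its start within 500 bp of the summit. *sec-61.B* encodes the beta subunit and *trap-3* a subunit of the TRAP complex, and these neighbours are transcribed away from each other from starts 770 bp apart. Their common peak (chrIV:2389010-2389265) lay 455 bp upstream of *sec-61.B* and 315 bp upstream of *trap-3*. Its relative signal was 9.82 in replicate 3 and 11.4 in replicate 4 (10.6 ± 1.12, SD, n = 2), rank 41. The summit also lay 33 bp from the start of an annotated non-coding RNA gene. The summit at *sec-61.G* was higher than this one in both replicates, and the 2 values of one peak did not overlap those of the other.

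*sec-61.A*, the gene of the channel-forming alpha subunit, differed in the place of its summit, which lay 133 bp downstream of the start within annotated exon sequence (chrIV:14824926-14825335). Its relative signal was 4.19 in replicate 3 and 4.56 in replicate 4 (4.37 ± 0.263, SD, n = 2). The start of the ribosomal protein gene *rps-18* lies 415 bp away on the other strand, and its distance of 548 bp from the summit puts it just outside the window. The 3 channel genes thus spanned a wide range of signal, and *sec-61.A* was below the other two in both replicates.

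The TRAP complex binds the channel and helps some signal sequences to enter it. *trap-2* had a narrow peak of 104 bp (chrX:768226-768329, 189 bp upstream), with 4.99 in replicate 3 and 4.51 in replicate 4 (4.75 ± 0.343, SD, n = 2). It shares this summit with *ile-2*, annotated as an L-type lectin-like protein, a class of proteins that bind glycoprotein cargo between ER and Golgi, whose start lies 527 bp away on the other strand. *trap-1* had a weaker peak (chrI:2928001-2928410, 189 bp upstream), with 2.37 in replicate 3 and 3.07 in replicate 4 (2.72 ± 0.499, SD, n = 2), rank 1219. *trap-4* was not bound. Its strongest candidate region, 261 bp upstream, had 1.53 in replicate 3 and 1.76 in replicate 4, and 1.59 in the pooled list, below the weakest thresholded peak.

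Signal peptidase cuts the signal sequence from proteins that enter the ER. Of its genes, *spcs-2* was bound (chrIII:12874707-12875116, 119 bp upstream), with 4.02 in replicate 3 and 3.94 in replicate 4 (3.98 ± 0.0577, SD, n = 2). Its summit also lies in the window of *mrg-1*, a chromodomain protein gene, whose start is 375 bp from that of *spcs-2*. *spcs-1* and *sec-11*, the gene of the catalytic subunit, had no candidate region in the window in any of the 3 lists. *spcs-3* had one of 0.975 in replicate 4 and none in replicate 3. Each of these 3 genes has the end of another gene on the same strand within 500 bp upstream. The gaps are 221 bp (*spcs-1*), 245 bp (*sec-11*) and 236 bp (*spcs-3*). Genes in operons lie in this way and can be transcribed from a promoter further upstream. The first gene of each run (*ndua-13*, *rpb-7* and *K12H4.5*) was not bound. *trap-1*, with such an end 260 bp upstream, was bound, and a part of this arrangement in binding was not tested.

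**Figure D2:**
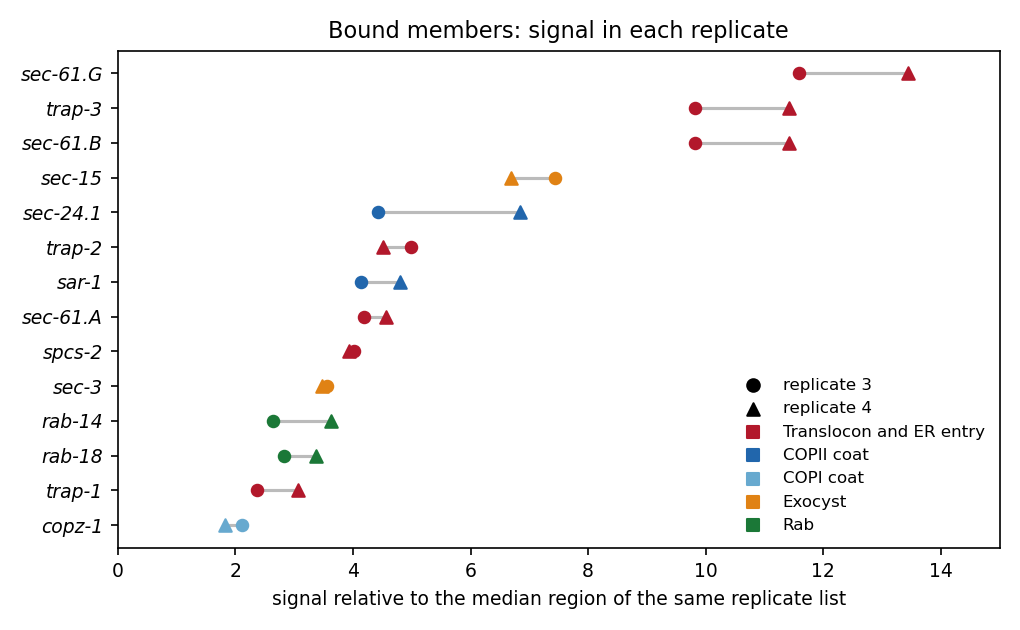
Relative signal (horizontal axis, 1 is the median region of the same replicate list) of the peak at each of the 14 bound members, in replicate 3 (circles) and replicate 4 (triangles), ordered by the mean and coloured by group. *sec-61.G*, *trap-3* and *sec-61.B* stand at 9.82 or above in both replicates, and the others at 7.43 or below.

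Of the 8 COPII genes, 2 were bound. *sec-24.1* encodes a cargo-binding subunit of the inner coat. Its peak (chrIV:11566127-11566536, 138 bp upstream) had 4.42 in replicate 3 and 6.84 in replicate 4 (5.63 ± 1.71, SD, n = 2), the widest gap between the replicates among the 14 genes. Its summit lay 71 bp from the start of an annotated non-coding RNA gene. *sar-1*, the gene of the GTPase that starts the assembly of the coat, had 4.14 in replicate 3 and 4.81 in replicate 4 (4.47 ± 0.474, SD, n = 2) at a summit 367 bp upstream (chrIV:4513481-4513890). No other protein-coding gene had its start within 500 bp of either summit.

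The other COPII genes were not bound. *sec-12*, the gene of the exchange factor of Sar1, had a pooled candidate region of 1.09. Of the scaffold genes of ER exit sites, *sec-16A.1* had a pooled region of 0.751. *sec-16A.2* had one of 0.994, with 1.63 in replicate 3 and 1.15 in replicate 4. The coat genes *sec-24.2* and *sec-31* had no candidate region in any list, and *sec-23* one of 0.821.

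Of the 7 genes of the COPI coat, *copz-1*, which encodes the zeta subunit, was the only one bound, and it was the weakest of the 14. Its peak (chrII:10872547-10872956, 127 bp upstream) had 2.11 in replicate 3 and 1.82 in replicate 4 (1.97 ± 0.202, SD, n = 2), rank 1768. It was no longer bound among the 2095 strongest regions of replicate 4 alone, where it ranked 2800. The summit is shared with the cyclophilin gene *cyn-4*, whose start lies 268 bp away on the other strand. *copb-1* had a pooled candidate region of 1.24 and *copb-2* one of 1.05. *copa-1*, *copd-1* and *cope-1* had none in any list, and *copg-1* one of 0.957 in replicate 4 alone.

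The 3 Arf genes lay below the threshold. Arf GTPases recruit coats to membranes. *arf-6*, whose product acts at the plasma membrane and endosomes, had the highest value of any member that was not bound, 1.80 in the pooled list, with 1.80 in replicate 3 and 1.73 in replicate 4. *arf-1* had 1.61 in the pooled list, with 1.48 in replicate 3 and 2.35 in replicate 4, and it was among the genes bound when the strongest regions of replicate 4 alone were used. *arf-5* had 1.06, with 1.26 and 1.23 in the replicates. On the pooled scale the members nearest to the threshold of 2.13 were thus *copz-1* inside it at 2.31 and *arf-6* outside it.

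Both bound exocyst genes are on the X chromosome, as are the bound *trap-2* and *rab-14*. In all, 4 of the 8 members on X were bound, against 4.25% of its protein-coding genes. On IV 5 of 15 members were bound (against 5.00%), and on III 2 of 13 (against 7.69%). The counts were 1 of 11 on I (against 7.23%), 1 of 7 on II (against 5.07%) and 1 of 3 on V (against 3.68%). Differences between chromosomes were not tested. *sec-15*, whose yeast counterpart binds the Rab GTPase of secretory vesicles, had 7.43 in replicate 3 and 6.68 in replicate 4 (7.06 ± 0.531, SD, n = 2) at a summit 368 bp upstream (chrX:8835878-8836287). That summit lay 30 bp from the start of a tRNA gene and 67 bp downstream of the start of *C28G1.2*, and its 201-bp window holds the B box letters GTTCGANNC. These were present at 1 of the 13 summits (7.69%), against 7.83% of all thresholded summits and 0.906% of promoter windows. The summit at *sec-15* was the only one of the 13 within 500 bp of a tRNA start, against 4.35% of all summits at bound protein-coding genes. *sec-3*, whose yeast counterpart marks sites of exocytosis, had 3.56 in replicate 3 and 3.47 in replicate 4 (3.52 ± 0.0604, SD, n = 2) at 153 bp upstream (chrX:3099800-3100209). The remaining exocyst genes were not bound. *sec-5* had a pooled candidate region of 1.64 and *sec-10* one of 1.07, *sec-6* had one of 0.745 in replicate 4 alone, and *sec-8* had none. The SNARE genes *sec-20* and *sec-22* had no candidate region in any list.

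**Figure D3:**
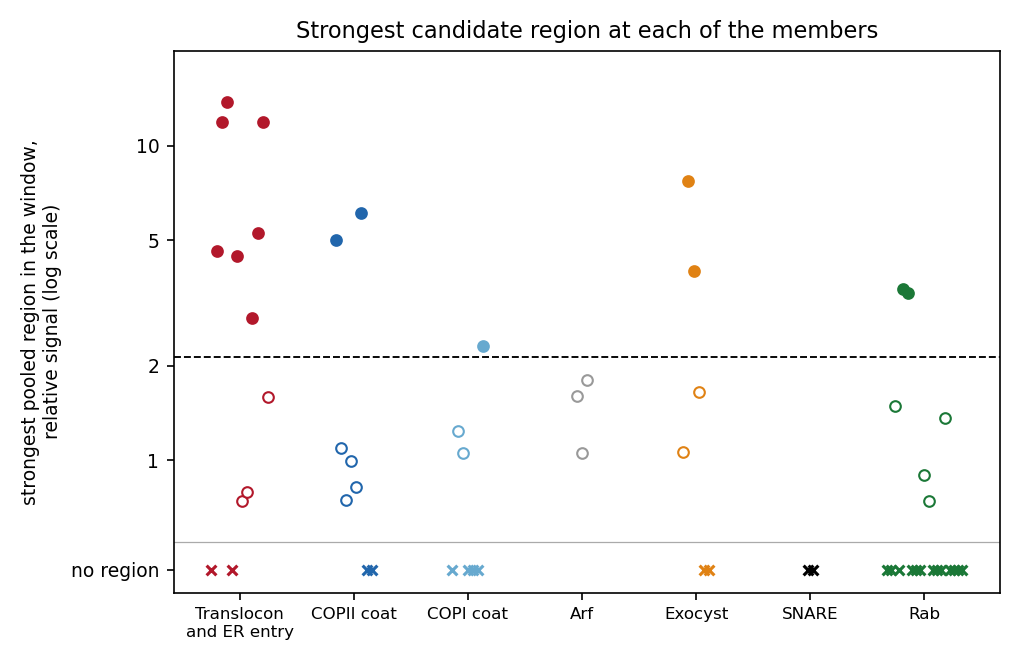
Strongest pooled candidate region with its summit within 500 bp of the start (vertical axis, relative signal, log scale) for each of the 57 members by group. Filled circles are bound genes, open circles genes that were not bound, and crosses below the grey line genes with no candidate region. The dashed line is the weakest thresholded peak (2.13). Most Rab genes are crosses (13 of 19), while 10 of the 12 translocon genes have a region.

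Among the 19 Rab genes, *rab-14* and *rab-18* were bound. *rab-14*, a gene of a GTPase of endosomal and phagosomal traffic, had 2.64 in replicate 3 and 3.63 in replicate 4 (3.13 ± 0.702, SD, n = 2) at a summit 391 bp upstream (chrX:15606821-15607230), and no other protein-coding gene shared the summit. *rab-18*, whose product is known from the ER and lipid droplets in mammals, had 2.83 in replicate 3 and 3.38 in replicate 4 (3.10 ± 0.387, SD, n = 2) at a summit 28 bp downstream of the start (chrIII:1080542-1080951). The same summit lies 154 bp upstream of *kbp-4*, a kinetochore protein gene on the other strand. The values of both Rab peaks overlapped each other in the replicates, and all lay below those of every bound translocon gene except *trap-1*.

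A pooled candidate region of any strength was present at 6 of the 19 Rab genes (31.6%, exact 95% interval 12.6 to 56.6%), against 31.8% of all protein-coding genes. The corresponding counts were 32 of all 57 members (56.1%) and 10 of the 12 translocon genes (83.3%). A pooled region of relative signal 1 or more was present at 4 Rab genes (21.1%), 8 translocon genes (66.7%) and 25 of the 57 members (43.9%), against 19.1%. *rab-11.1*, of recycling endosomes, had 1.48 in the pooled list (1.20 in replicate 3 and 1.49 in replicate 4) and *rab-5*, of early endosomes, 1.37 (0.980 and 1.58). *rab-30* had 0.899 (0.907 and 0.739), and *rab-33* 0.745 (1.28 and 0.781). Single replicates listed a region of 0.753 at *rab-19*, 0.773 at *rab-21* and 0.753 at *rab-7* (replicate 3), and of 0.997 at *rab-37* (replicate 4). No candidate region was listed in any of the 3 lists at *rab-1*, the Rab of traffic from ER to Golgi, or at *rab-6.1*, *rab-6.2*, *rab-8*, *rab-10*, *rab-11.2*, *rab-28*, *rab-35* and *rab-39*.

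The count of bound Rab genes depended on the window. A thresholded summit lay 501 to 1000 bp from the start of 4 members that were not bound, and 3 of these were Rab genes. *rab-7*, of late endosomes, had a summit 794 bp upstream with 5.61 in replicate 3 and 5.59 in replicate 4, and 181 bp from the start of *W03C9.5*, a gene on the same strand that overlaps it. *rab-11.1* had one 682 bp upstream with 5.60 and 4.05, which lies 299 bp from the start of the divergent ribosomal protein gene *rpl-7*. Another thresholded summit lay within the body of *rab-11.1*, outside the 500-bp window, and no other member that was not bound had such a summit. *rab-5* had one 699 bp upstream with 4.34 and 3.78, and its own start was the nearest protein-coding start. The fourth was *tram-1*, whose product assists the Sec61 channel, with a summit 917 bp upstream (2.59 and 4.43) that lies 335 bp from the start of *C24F3.2*. With 1000 bp to either side, 5 of 19 Rab genes were bound (26.3%) and 8 of 12 translocon genes (66.7%), against 7.05% of all protein-coding genes. With 250 bp, 1 Rab gene and 5 translocon genes were bound, against 3.32%.

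Other rules gave the following counts over all 57 members. The thresholded peaks of above-median signal gave 12 bound members, against 3.06% of all protein-coding genes, without *trap-1* and *copz-1*. A window from 1000 bp upstream to 100 bp downstream gave 17, against 6.23%, and any part of the peak within 500 bp gave 16, against 6.03%. Every annotated transcript start in place of the most 5′ one gave 14, against 5.74%. Assignment of each summit to the nearest start within 5000 bp gave 16, against 8.03%, where *sec-15* and *sec-61.B* were lost and *arf-1*, *arf-5*, *rab-5* and *rab-7* were gained. The strongest regions of replicate 3 alone gave the same 14 genes, against 4.94%, and those of replicate 4 alone gave 14, against 5.18%, with *arf-1* in place of *copz-1*.

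**Figure D4:**
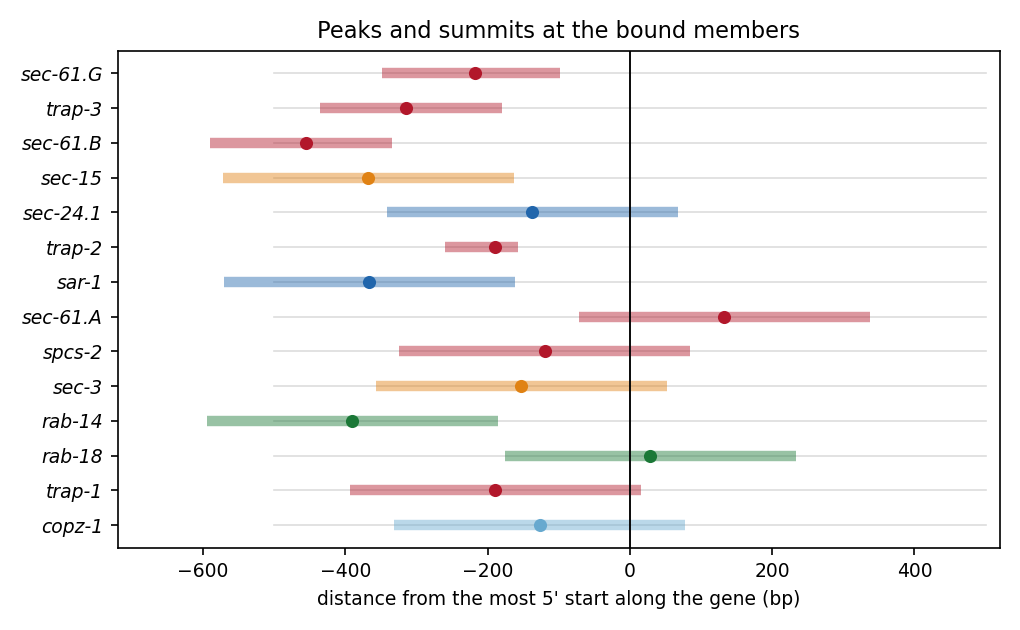
Peaks (thick bars) and summits (points) at the 14 bound members, by distance from the most 5′ start along the gene in bp (horizontal axis, negative is upstream), coloured by group as in the plot of signal by replicate. Thin grey lines span the 500-bp window. The summits of *sec-61.A* and *rab-18* lie downstream of the start, and the other 12 upstream.

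Summits lay upstream of the start at 12 of the 14 genes, with a median position of −189 bp. Over all 1050 bound protein-coding genes 86.6% of summits lay upstream, and the median was −185 bp. For 10 of the 13 distinct peaks the summit is the middle of the region (to within 1 bp), so positions are coarse. Another gene's window held the same summit at 7 of the 14 members, as for 42% of all bound genes. In 2 of these 7 cases the other gene was a member too (*sec-61.B* and *trap-3*), and the others were *ile-2*, *mrg-1*, *cyn-4*, *kbp-4* and *C28G1.2*. A peak between divergent starts cannot be assigned to either gene from these lists.

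The end of a gene on the same strand lay within 500 bp upstream, overlaps of up to 50 bp included, at 17 of the 57 members (29.8%), against 18.7% of all protein-coding genes. Of these 17 genes 2 were bound (*trap-1* and *sec-3*, 11.8%), and of the other 40 members 12 (30%). Over all protein-coding genes the shares were 4.77% with such a neighbour and 5.37% without. Among the 15 of these members that were not bound, the first gene of the run was bound at *sec-6* (*bmy-1*) and *rab-7* (*W03C9.5*).

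The median relative signal of the 14 bound genes was 4.16 in replicate 3 and 4.53 in replicate 4 (4.42 for the means), against 3.03 and 3.28 (3.14) over 1048 bound protein-coding genes with a region in both replicates. Of the 14, 12 were bound by thresholded peaks of above-median signal, all but *trap-1* and *copz-1*, against 611 of all 1050 bound protein-coding genes. A q-value of 0.01 or below was given by the authors to 13 of the 14 in the pooled list, all but *copz-1*, against 66.7% of all bound genes. In replicate 3 this held for 10, all but *rab-14*, *rab-18*, *trap-1* and *copz-1*, and in replicate 4 for 13. All but *copz-1* were among the 2095 strongest regions of both replicates. Shares of all bound genes were not computed for these counts in the replicates. Relative signal was higher in replicate 4 at 9 of the 14 genes, and at 53.99% of thresholded peaks. The count of genes includes the shared peak of *sec-61.B* and *trap-3* for both genes. Between genes next to each other in signal, the replicate values of *trap-2*, *sar-1* and *sec-61.A* overlapped, so their order is not resolved, and neither is that of *sec-15* and *sec-24.1*, of *sec-24.1* and *trap-2*, or of *sec-3*, *rab-14*, *rab-18* and *trap-1* taken in turn.

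**Figure D5:**
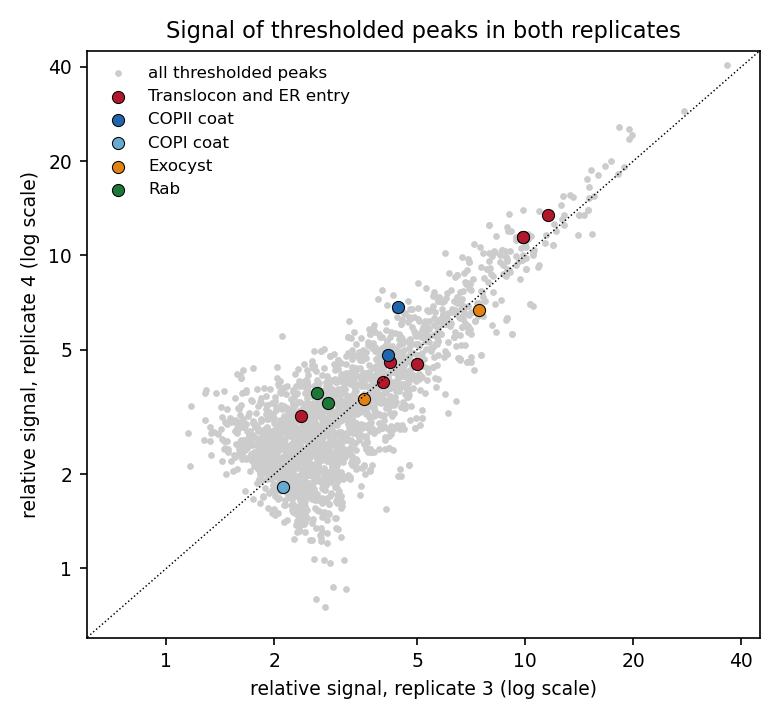
Relative signal of thresholded peaks in replicate 3 (horizontal axis) and replicate 4 (vertical axis), both on log scales. Grey points are the 2091 peaks with a region in both replicates, coloured points the bound members by group, and the dotted line marks equal values. The members lie along the line, from *copz-1* (2.11 and 1.82) to *sec-61.G* (11.6 and 13.4).

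Other genes of the same pathways, from a list of 105 symbols of which 97 matched the annotation, were bound in 21 of 97 cases (21.6%, exact 95% interval 13.9 to 31.2%, against 5.26% of all protein-coding genes). Of the 10 with the highest signal, 5 encode chaperones and disulfide isomerases of the ER, a grouping made after the values were seen. The Hsp70 chaperone gene *hsp-3* had 12.2 in replicate 3 and 11.97 in replicate 4, *enpl-1*, the homolog of GRP94, 9.05 and 10.3, and *crt-1*, which encodes calreticulin, 8.17 and 10.3. The disulfide isomerase genes *pdi-2* (6.74 and 6.61) and *pdi-6* (5.06 and 6.16) followed. With *pdi-1*, which had lower signal, 6 of the 9 genes of this kind in the list were bound, and *hsp-4*, *cnx-1* and *pdi-3* were not.

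Of 4 regulators of the unfolded protein response in the list, also grouped after the values were seen, *atf-6*, *xbp-1* and, with lower signal, *ire-1* were bound, and *pek-1* was not. These 3 of 4 stand beside 21.6% of the 97 matched genes and 5.26% of all protein-coding genes, and the difference was not tested. The transcription factor genes *atf-6* and *xbp-1* had 7.21 and 6.61 for the former, and 3.76 and 5.23 for the latter, in replicates 3 and 4. The 10 also included *syx-5*, a SNARE gene of the Golgi (7.60 and 7.65), and *dad-1*, of the oligosaccharyltransferase (4.72 and 7.12). The 11 others with lower signal were *cogc-2*, *aps-1*, *nbet-1*, *unc-108*, which encodes Rab2, *ccz-1*, *nsf-1*, *trpp-8*, *exoc-7*, *pdi-1*, *ire-1* and *erd-2.1*. The summit lay in another gene's window at 9 of the 21, against 42% of all bound genes. Among these 9 were *enpl-1*, *syx-5* and *dad-1*.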

How the data were processed

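Per the text deposited with the samples, candidate regions with background were called by the authors for either replicate and for both pooled, against a control alignment, and the thresholded list was made from them. The aligner and caller are not stated in the sources used here. The ce11 lists were used, and the ce10 lists were not. The deposited signal value of each region has no stated scale. The deposited −log10 q-value was used only to count peaks. Another deposited column, the summit offset, set the summit positions. Genes came from Ensembl release 115 (WBcel235, the build of ce11). The value of a thresholded peak in a replicate is that of the strongest replicate region overlapping it by 1 bp or more. At genes not bound, it is that of the strongest region with its summit in the window. Shares were set beside those of all protein-coding genes, with no test, because a single group was measured and the members, groups, lists and windows were chosen with earlier results of these data known. Intervals cover counting error and treat genes as independent. Every bound member was named, with every other member of pooled relative signal 1 or more and at most 10 bound genes of the pathway list with values. The values of the remaining members were added after they were seen. The values of 1 gene of that list are not reported here. The code of the window rule was checked on simulated summits placed within 500 bp of chosen starts. By construction this check cannot show whether a gene called bound is truly bound. Alternatives were a stricter signal, 3 other windows, all annotated starts, any overlap of the peak, the nearest start within 5000 bp, each replicate alone and 2 other scales. Python 3.11.15, pandas 2.3.3 and scipy 1.17.1 were used.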

Additional observations from a re-analysis of the deposited data

How the results depend on the processing

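The 14 bound members became 9 with a window of 250 bp to either side, against 3.32% of all genes. Lost there were *rab-14*, *sar-1*, *sec-15*, *sec-61.B* and *trap-3*. They were 12 with the thresholded peaks of above-median signal (against 3.06% of all genes). With 1000 bp to either side there were 18 (against 7.05%), and 17 when the downstream side was cut to 100 bp (against 6.23%). Any part of the peak in the window gave 16 (against 6.03%), and so did the nearest start (against 8.03%). With replicate 3 or replicate 4 alone there were 14 (4.94% and 5.18% of all genes). The translocon count stayed between 5 and 8 of 12 and the coat count between 2 and 3 of 15 in all 9 alternatives. The share of all genes moved between 3.06% and 8.03% under the same rules. The 2 Rab genes became 1 with 250 bp (against 3.32% of all genes) and 5 with either wider window (against 7.05% and 6.23%). With any part of the peak (6.03% of all genes) or with the nearest start (8.03%) there were 4 Rab genes. By construction these windows hold less or more sequence. The median relative signal of 4.42 was 4.82 on the pooled scale and 1.71 when divided by the median of the regions that overlap thresholded peaks, and 4.16 to 4.53 with 1 replicate. Read depth is unknown, and 2 replicates limit the precision of each value. No paired analysis was possible because a single group was measured.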
